A study of Mus musculus with 4 samples.

Results

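Type I interferon-stimulated genes were followed through the cells of mouse liver metastases. The set was a list of 36 genes chosen by name as common targets of type I interferon, with earlier results of these data known. Of the 32285 genes in the deposited matrices, 34 were members of the list, each with at least 1 UMI in all 4 libraries. Mx1 and Mx2 were not analysed here. The cells came from tumours that MC38, a mouse colon carcinoma line, had formed in the liver of C57BL/6J mice. After dissociation they were enriched on magnetic beads for CD45, the leukocyte surface phosphatase encoded by Ptprc, and sequenced by droplet-based single-cell RNA sequencing from the 3′ end of transcripts. There were 4 libraries, which differed in diet and in the tumour line injected. HFD_shYap came from high-fat-fed mice carrying a Yap knockdown derivative of MC38, and HFD_WT from high-fat-fed mice carrying unmodified MC38. LFD_shYap came from low-fat-fed mice carrying the knockdown derivative, and LFD_WT from low-fat-fed mice carrying unmodified MC38. All hosts were labelled wild type, so that the knockdown concerns the tumour cells and not the immune cells measured. Neither the number of mice per library nor their age was given in the sources used here, and each combination had 1 library. For LFD_shYap the title names low-fat feeding, while the treatment entry names high-fat feeding. It is taken here as its title says, a choice on which each diet comparison with this library rests.

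Type I interferons are secreted proteins, among them interferon beta and the interferon alpha family, that cells release after sensing nucleic acids out of place. They bind the receptor Ifnar1 and Ifnar2 on most cell types, whose kinases Jak1 and Tyk2 phosphorylate the factor Stat2. Stat2 and Irf9 are parts of the complex ISGF3, which enters the nucleus and switches on the interferon-stimulated genes at a short DNA element, the interferon-stimulated response element (ISRE). The products sense viral RNA, block its translation or copying, tag proteins and feed back on the pathway. In tumours, type I interferon is known for its part in dendritic cell cross-presentation to T cells.

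The promoters show how many members share a sequence element. RefSeq promoter windows of the build GRCm38.p6, from 250 bases before to 50 bases after a transcription start, were at hand for 28 of the 34 measured members. They were searched on both strands for the core of the ISRE, GAAA followed by 2 bases of any kind and a second GAAA, which from the other strand reads as TTTC on either side of the 2 free bases. Matches may overlap. A match was present in at least 1 window of 15 of these 28 members, and in 3.92% of the 20267 genes that the matrices and the promoter table share. Below are the 160 bases that end just before the start site for 6 picked members, 5 with a match and 1 without. Each runs 5′ to 3′ on the gene's strand, with every ISRE match in capitals. The pick does not reflect the share of members with a match. Of the members with a window and more UMIs than Ifit1 that are not shown, Irf7, Ifi35 and Oasl2 had no match, and Trim30a and Phf11b had one. Isg15 lies on chr4:156200819-156200978 (minus strand), Ifit1 on chr19:34640729-34640888 (plus strand) and Ifit3 on chr19:34583369-34583528 (plus strand). Rsad2 lies on chr12:26456453-26456612 (minus strand), Bst2 on chr8:71537473-71537632 (minus strand) and Ms4a4c on chr19:11407501-11407660 (plus strand).
Isg15: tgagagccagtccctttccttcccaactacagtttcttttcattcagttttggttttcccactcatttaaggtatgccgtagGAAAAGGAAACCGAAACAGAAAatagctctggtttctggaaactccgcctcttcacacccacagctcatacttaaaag
Ifit1: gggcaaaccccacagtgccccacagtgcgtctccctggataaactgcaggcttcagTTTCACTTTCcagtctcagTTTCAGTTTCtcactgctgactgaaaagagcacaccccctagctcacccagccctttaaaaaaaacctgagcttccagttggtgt
Ifit3: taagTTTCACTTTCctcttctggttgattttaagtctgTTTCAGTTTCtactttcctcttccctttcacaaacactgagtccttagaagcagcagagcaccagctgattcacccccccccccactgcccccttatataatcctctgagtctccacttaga
Rsad2: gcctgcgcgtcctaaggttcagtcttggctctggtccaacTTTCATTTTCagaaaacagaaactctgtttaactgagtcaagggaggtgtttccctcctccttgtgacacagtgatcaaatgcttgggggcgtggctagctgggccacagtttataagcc
Bst2: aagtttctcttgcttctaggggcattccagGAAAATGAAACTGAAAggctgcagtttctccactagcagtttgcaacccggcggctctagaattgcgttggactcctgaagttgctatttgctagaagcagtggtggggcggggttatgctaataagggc
Ms4a4c: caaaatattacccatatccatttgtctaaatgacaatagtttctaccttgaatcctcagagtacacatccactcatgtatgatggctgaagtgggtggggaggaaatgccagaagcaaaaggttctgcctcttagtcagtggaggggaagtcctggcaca
Isg15 had 3 overlapping matches, which form 1 run of capitals that starts 78 bases before the start site, and Bst2 had 2 overlapping matches that start at 130 bases. Ifit1 and Ifit3 had 2 separate matches each, and the nearest started 85 and 122 bases before the start site. Rsad2 had 1 match at 120 bases. Ms4a4c had no match in its window. A match describes the letters of the window and does not show that a factor binds there.

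In all, 50062 barcodes with 106268471 to 144936859 UMIs per library were deposited, and 38243 cells were kept. A UMI marks 1 captured transcript molecule, and CPM is a gene's UMIs scaled to 1000000 UMIs of the cells summed. Because the 3′ ends of molecules are counted, CPM carries no factor of transcript length. Any 2 libraries shared 33 to 63 deposited barcodes. Yap1, the target of the knockdown, was measured in 2 clusters low in Ptprc, which held few leukocyte transcripts. It stood there at 22.0 CPM in the library labelled HFD_shYap, 16.8 CPM in HFD_WT, 17.9 CPM in the library labelled LFD_shYap and 20.2 CPM in LFD_WT. In these clusters the library labelled HFD_shYap was therefore not below HFD_WT. By markers the first scored highest for tumour-like cells and the other for fibroblasts and stellate cells, and neither was shown to be tumour cells. Yap1 there cannot decide whether the knockdown labels hold, since host cells may contribute. Every tumour line direction below rests on the labels alone. HFD_shYap also stood apart in sex-linked RNA. Of its 7281 kept cells, 2012 had UMIs of Xist and none of 4 Y-linked genes, and 2974 had Y-linked UMIs and none of Xist, whereas each other library had at most 1 cell with Xist UMIs alone. Its summed members are given below for each kind of cell in neutrophils, monocytes, phagocytes and the T lineage. Most other values of HFD_shYap, among them those of the clusters low in Ptprc, join all its cells.

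Across cell types the summed members took from 0.0617% to 0.527% of all UMIs (median over libraries), in an order led by monocytes, plasmacytoid dendritic cells and neutrophils. Cell types were named from marker genes in a joint clustering. Monocytes, the Ly6c2- and Ccr2-bearing precursors of tumour macrophages, gave 0.472% in HFD_shYap, 0.501% in HFD_WT, 0.552% in LFD_shYap and 0.741% in LFD_WT. Plasmacytoid dendritic cells, known as strong producers of type I interferon, gave 0.446% to 0.521% in the 3 libraries with at least 10 such cells. Bst2 alone averaged 2988 CPM there, against 760 CPM in monocytes. A large part of the plasmacytoid share, and thus of its place in the order, came from this gene. Neutrophils gave 0.784% in HFD_shYap, 0.348% in HFD_WT, 0.221% in LFD_shYap and 0.389% in LFD_WT, the widest range of these 3. Cd209a-positive conventional dendritic cells followed at 0.253%, macrophages at 0.238% and Kupffer cells, the resident macrophages of the liver, at 0.193%. The T lineage stood at 0.158%, B cells at 0.118% and NK and ILC1 cells at 0.105%. Erythrocytes, which should make little of this RNA, stood at 0.0529% to 0.0752% from 10 to 19 cells in 3 libraries, and HFD_shYap had 1 such cell. Their RNA of phagocyte marker genes stood at 4.41% to 15.2% of the phagocyte level, against 30.1% to 39.0% in B cells. Erythrocytes therefore set no upper limit for free RNA in other cell types. In this order each cell type overlapped its next neighbour over the libraries, so that neighbours did not differ beyond their spread.

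**Figure D1:**
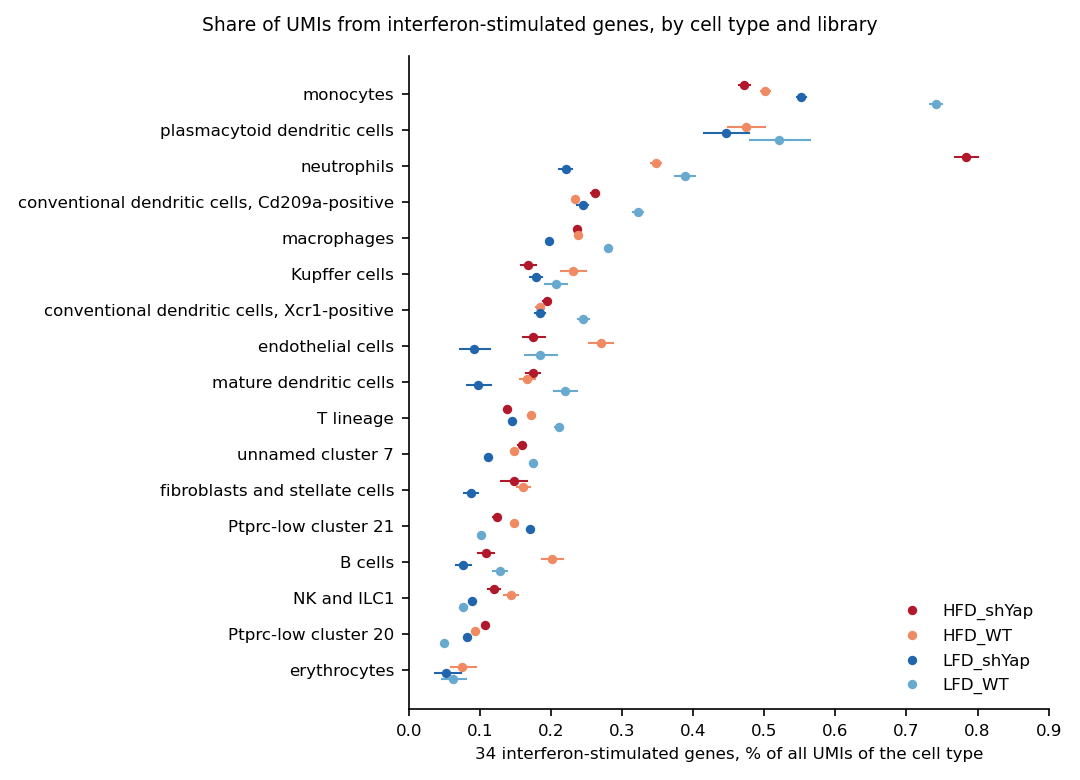
Share of UMIs from the 34 interferon-stimulated genes (horizontal axis, %) for each cell type with at least 10 cells in a library, ordered by the median over libraries. Points are libraries and lines are exact 95% Poisson intervals, which cover counting error only. Monocytes, plasmacytoid dendritic cells and neutrophils lead, and HFD_shYap neutrophils lie at 0.784%, above the other libraries.

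By member, 16 of the 34 had their highest mean CPM in monocytes and 12 in neutrophils, and 6 peaked elsewhere. Bst2, the tetherin that holds budding virions on the cell, reached 2988 ± 582 CPM in plasmacytoid dendritic cells, against 759.8 ± 143 CPM in monocytes (SD, n = 3 and 4 libraries), and the ranges did not overlap. Ifi205, a DNA-binding PYHIN protein gene, reached 324 ± 32.7 CPM in Xcr1-positive conventional dendritic cells, against 67.2 ± 7.99 CPM in the Cd209a-positive type (SD, n = 4 each). Ifi205 is among the genes that define that cluster, so this is a description. Of the last 500 bases of its transcript, 79.2% of all 50-base words also occur in Ifi211, and its reads may be split between both genes. The same holds in part for Oas1a, with 56.1% of words shared with Oas1g, Phf11b, with 42.6% shared with Phf11c, and Ifit3, with 14.9% shared with Ifit3b. Irf7, the factor that amplifies interferon alpha production, stood at 429.7 ± 106 CPM in monocytes and 213 ± 34.5 CPM in plasmacytoid dendritic cells. Ms4a4c, a membrane protein gene, stood at 839 ± 149 CPM in monocytes, where it helped define the cluster, and 350.0 ± 55.4 CPM in Cd209a-positive dendritic cells. Rsad2, which makes the chain-terminating nucleotide ddhCTP, and Ifit1, which binds foreign RNA caps, averaged 662 ± 575 and 332 ± 296 CPM in neutrophils, so their SDs nearly reached their means.

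The most abundant members carried unequal parts of the sum. Bst2 held 25.6% of member UMIs over all kept cells, Isg15, the ubiquitin-like modifier, 10.5%, Ms4a4c 7.91% and Irf7 5.68%. In neutrophils the order differed, Isg15 holding 18.4% and Rsad2 15.1%, and Bst2 6.01%.

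In mononuclear phagocytes, which join monocytes, macrophages and Kupffer cells and numbered 4586 to 6521 cells per library, the members took 0.247% of UMIs in HFD_shYap, 0.255% in HFD_WT, 0.223% in LFD_shYap and 0.314% in LFD_WT. LFD_WT was the highest for most members and LFD_shYap the lowest for many. A further cluster was closest to phagocytes by its markers but was left unnamed for its low depth, and it is not part of these values. It held 441 cells of HFD_shYap, 606 of HFD_WT, 613 of LFD_shYap and 1543 of LFD_WT. Members took 0.160%, 0.148%, 0.111% and 0.174% of its UMIs in the same order. The libraries differed in their mix of phagocyte clusters: the cluster led by Ccl7 and Lyve1 held 267 cells of HFD_shYap, 330 of HFD_WT, 965 of LFD_shYap and 2224 of LFD_WT. Outside the monocyte cluster and a cluster defined by members, the share was 0.180% in HFD_shYap, 0.198% in HFD_WT, 0.141% in LFD_shYap and 0.170% in LFD_WT. The cluster defined by members held 433 cells of HFD_shYap, 437 of HFD_WT, 440 of LFD_shYap and 864 of LFD_WT. Leaving it out removes cells high in members by construction, and more of them from LFD_WT than from any other library. That LFD_WT was then not the highest is therefore a description only. Among the sensors, Zbp1, which recognises Z-form nucleic acid, stood at 98.2 CPM in HFD_shYap, 101 CPM in HFD_WT, 68.7 CPM in LFD_shYap and 111 CPM in LFD_WT. Ifih1, the double-stranded RNA sensor MDA5, stood at 42.0, 37.9, 50.3 and 47.0 CPM in the same libraries in the same order. Among the factors, Irf7 stood at 164 CPM in HFD_shYap, 156 CPM in HFD_WT, 135 CPM in LFD_shYap and 175 CPM in LFD_WT. Irf9, the DNA-binding part of ISGF3, had its highest level in HFD_shYap, with 50.3 CPM there, 40.2 CPM in HFD_WT, 29.2 CPM in LFD_shYap and 37.8 CPM in LFD_WT.

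The OAS genes make or resemble enzymes that activate RNase L on double-stranded RNA. Of these, Oasl2 stood at 72.0 CPM in HFD_shYap, 53.0 CPM in HFD_WT, 48.4 CPM in LFD_shYap and 72.4 CPM in LFD_WT, while Oasl1, a repressor of Irf7 translation, stood at 33.9, 31.6, 40.8 and 49.0 CPM. Oasl1 was thus lower in both HFD libraries than in both LFD libraries, and Oasl2 was not. The IFIT genes encode binders of foreign RNA, and Ifit1 was also lower in both HFD libraries, at 43.8 CPM in HFD_shYap and 36.4 CPM in HFD_WT, against 64.3 CPM in LFD_shYap and 71.3 CPM in LFD_WT. Ifit3 stood at 34.7, 37.1, 38.3 and 69.1 CPM, with LFD_WT alone high. Isg15 showed the same shape, with 199.6 CPM in HFD_shYap, 253 CPM in HFD_WT, 212 CPM in LFD_shYap and 382 CPM in LFD_WT. Herc6, the ligase that attaches Isg15 in mice, stood at 22.9, 21.02, 18.1 and 28.4 CPM.

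Among the antiviral effectors, Bst2 followed another order, with 601 CPM in HFD_shYap, 739 CPM in HFD_WT, 568 CPM in LFD_shYap and 692 CPM in LFD_WT. It was low in both libraries labelled shYap. Rsad2 stood at 98.7, 83.1, 86.7 and 144 CPM, high only in LFD_WT. Of the PYHIN genes, Ifi205 varied little, at 13.4, 13.6, 14.9 and 15.98 CPM, and Ifi206 stood at 22.4, 19.4, 19.1 and 28.1 CPM. Ms4a4c stood at 212 CPM in HFD_shYap, 219.6 CPM in HFD_WT, 228 CPM in LFD_shYap and 262 CPM in LFD_WT. Trim30a, a ring-finger protein gene, stood at 132, 114, 99.8 and 157 CPM. Among less abundant members, Cmpk2, a mitochondrial nucleotide kinase gene, stood at 17.003 CPM in HFD_shYap, 12.1 CPM in HFD_WT, 9.69 CPM in LFD_shYap and 27.1 CPM in LFD_WT. Isg20, an RNA exonuclease gene, stood at 17.2, 23.5, 19.7 and 29.8 CPM, and was low in both libraries labelled shYap. Ifit3b stood at 6.26, 5.63, 6.43 and 12.6 CPM and Oas2 at 18.5, 11.1, 12.3 and 15.2 CPM in the same order. The other 14 members ranged from 14.3 CPM (Oas1a in LFD_shYap) to 92.4 CPM (Phf11b in LFD_WT).

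Both factors, diet and tumour line, were tested together on UMI sums per library with edgeR's quasi-likelihood test, an additive model with 1 residual degree of freedom, and Benjamini-Hochberg adjustment over all genes. The only error such p-values hold is the spread among 4 libraries. Counts at an unadjusted p under 0.05, here and below, are given without the share of all genes at that threshold. No excess can be read from them. In phagocytes, diet called 0 of 34 members (74 of 14249 genes called, or 0.519%), with 6 members at an unadjusted p under 0.05, and DESeq2 called 1. The lowest was Ifit1, at a log2 fold change of -0.81 (HFD over LFD, SE 0.162, edgeR adjusted p = 0.079, lower in both HFD libraries). This is the member that DESeq2 called. Over members the median log2 fold change was -0.12, against -0.01 over all genes tested. On simulated counts for this diet comparison, the fit recovered 50% of genes changed by a log2 of 1 and 97% of those changed by 2. It called 3 unchanged genes. Tumour line called 0 of 34 members (0.0491% of all genes called), with 7 at an unadjusted p under 0.05 and 0 by DESeq2. The lowest adjusted p were those of Isg20 (-0.53, SE 0.151, edgeR adjusted p = 0.575), and Isg15 (-0.61, SE 0.184, edgeR adjusted p = 0.613). With 1 library left out, the tested factor was fitted alone, an arm of 1 library being assumed to vary like the other libraries. Without LFD_shYap, the library whose labels conflict, diet set both HFD libraries against LFD_WT alone and called 4 members lower, namely Cmpk2, Ifit3, Ifit3b and Usp18, among 191 genes called, against 74 in the additive model of all 4 libraries. With the Xist-bearing cells of HFD_shYap alone, in the additive model, it called 3 lower, Ifit1, Ifit3 and Rsad2, among 106 genes called.

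Single libraries were then set side by side, with no test. LFD_shYap over LFD_WT gave a log2 ratio of the summed members of -0.50 (95% interval -0.50 to -0.49, counting error only), with 33 of 34 members lower and 2 lower by at least 2-fold (2.2% of all genes were). The lowest member was Cmpk2 at -1.48, and the highest was Ifih1 at 0.10. HFD_WT over LFD_WT gave -0.30 (-0.31 to -0.29), with 31 of 34 lower and 2 by at least 2-fold (2.38% of all genes). Ifit3b was the lowest member at -1.16 and Bst2 the highest at 0.09. HFD_shYap over LFD_shYap gave 0.15 (0.14 to 0.16), with 24 of 34 higher and none changed by 2-fold (3.54% of all genes were higher and 1.92% lower by that much), from Cmpk2 at 0.81 to Ifit1 at -0.56. With Xist-bearing cells of HFD_shYap alone this ratio turned to -0.14, and with Y-linked cells alone it was 0.24. HFD_shYap over HFD_WT gave -0.04 (-0.05 to -0.04), with 22 of 34 higher and none changed by 2-fold (2.05% of all genes were higher and 1.36% lower by that much), from Oas2 at 0.74 to Isg20 at -0.45. This ratio was -0.33 with Xist-bearing and 0.05 with Y-linked cells. The pairs share libraries, LFD_WT entering the first and the second. Over all genes the median log2 ratio of these pairs ran from -0.09 to 0.15, so the sum of HFD_shYap over LFD_shYap lay at that median, and its sign changed with TMM scaling, to -0.003.

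By role, the IFIT genes had the lowest median in HFD_WT over LFD_WT, at -0.93, where the factors Irf7, Irf9 and Stat2 stood at 0.03. In LFD_shYap over LFD_WT every role had a negative median, from -0.85 for Isg15, Usp18 and Herc6 to -0.33 for the PYHIN genes. Within phagocyte clusters of at least 50 cells in both libraries, HFD_WT was above LFD_WT in 5 of 9 clusters, with a mean log2 ratio of -0.01. LFD_shYap was above LFD_WT in 2 of 9, with a mean of -0.24. The monocyte cluster was lower in each comparison with LFD_WT, at -0.56 for HFD_WT and -0.43 for LFD_shYap, while its median cell in LFD_shYap stood higher than in LFD_WT, by 0.32 on the log2 scale.

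**Figure D2:**
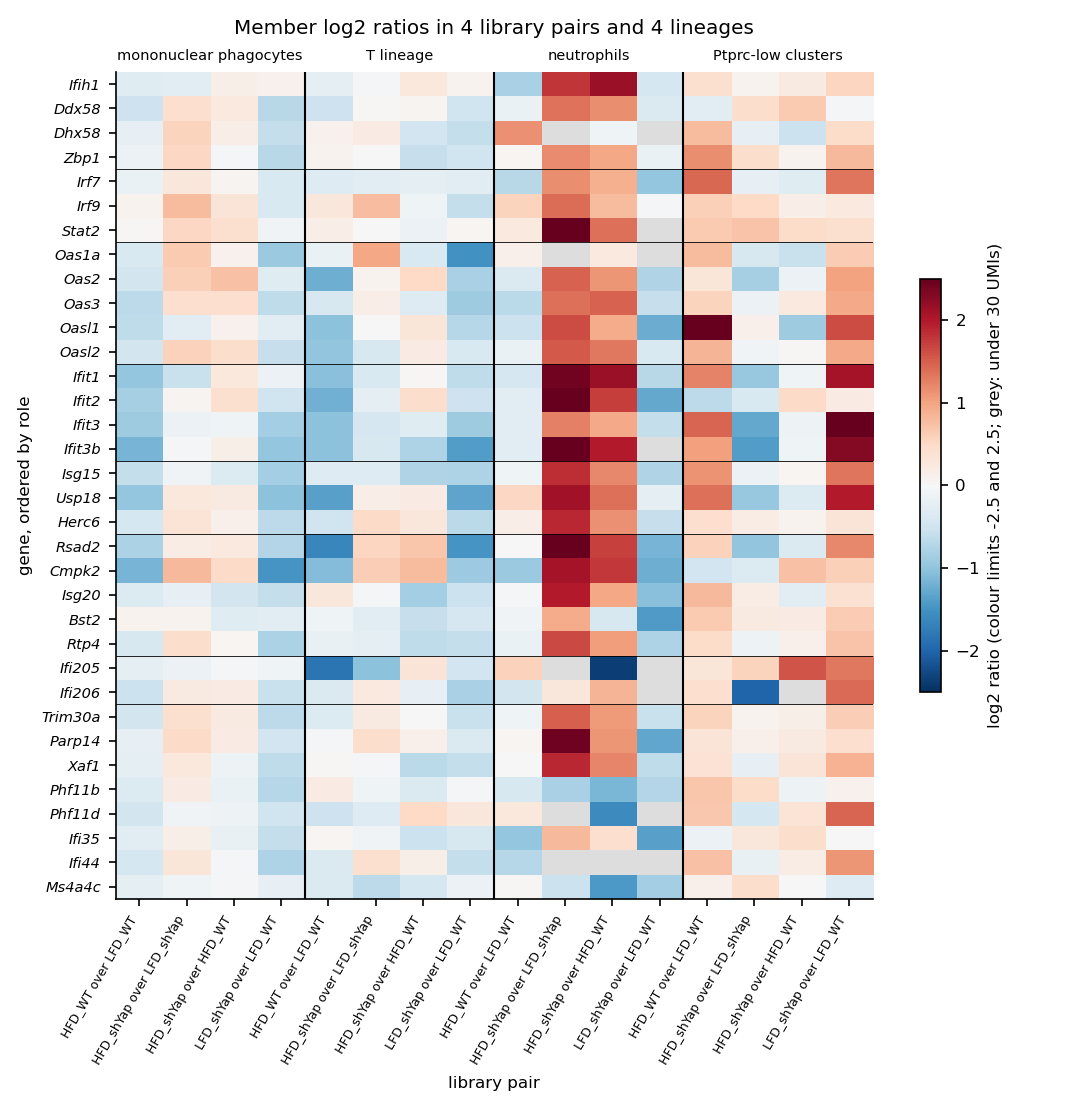
Log2 ratio of CPM for each measured member (rows, ordered by role, with thin lines between roles) in 4 library pairs within 4 lineages (columns). Grey marks members under 30 UMIs over both libraries. In neutrophils, 24 of 29 members were at least 2-fold higher in HFD_shYap than in LFD_shYap, and in phagocytes 33 of 34 were lower in LFD_shYap than in LFD_WT.

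The member RNA was unevenly spread over cells. With each phagocyte thinned to 3000 UMIs, the median cell had 5 member UMIs in HFD_shYap, 5 in HFD_WT, 3 in LFD_shYap and 4 in LFD_WT, and the 90th percentile was at 17, 18.4, 17 and 27 UMIs. LFD_WT was thus highest in the upper tail and not in the median. Thinning left out 353 to 980 cells per library, and unthinned medians were 0.152% of UMIs in HFD_shYap, 0.155% in HFD_WT, 0.097% in LFD_shYap and 0.139% in LFD_WT. The tenth of cells with most member UMIs held 41.5% of them in HFD_shYap, 41.5% in HFD_WT, 47.9% in LFD_shYap and 47.3% in LFD_WT. A phagocyte cluster led by Ifit3, Ifit2, Ccl12 and Phf11d, and thus defined by members, took 0.653% of UMIs in HFD_shYap, 0.717% in HFD_WT, 0.598% in LFD_shYap and 0.882% in LFD_WT, which is given as a description.

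**Figure D3:**
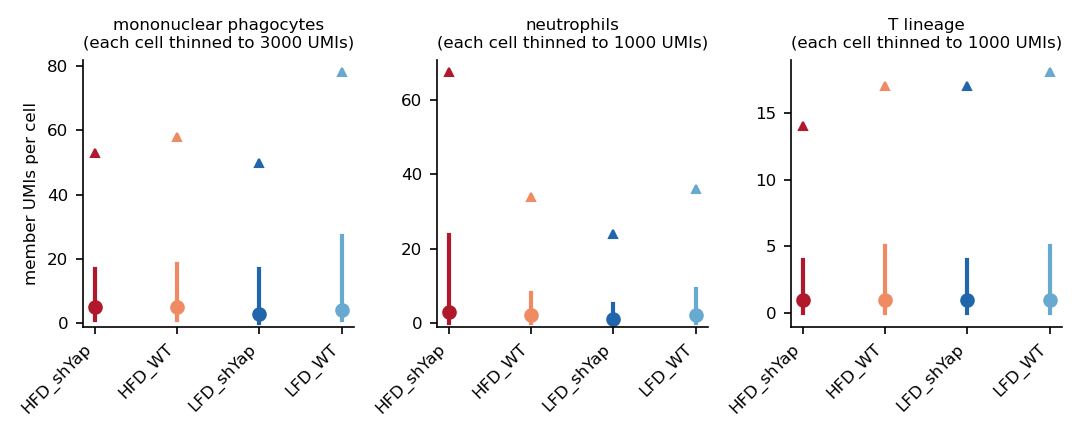
Member UMIs per cell (vertical axis) after thinning each cell to a fixed number of UMIs, by library. Points are medians, bars run from the 10th to the 90th percentile and triangles mark the 99th. In phagocytes LFD_WT has the highest 90th percentile, 27 UMIs, and in neutrophils HFD_shYap has, with 23.8 UMIs.

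Members differed in how far they moved with the rest from cell to cell. Across thinned phagocytes, the correlation of a member with the sum of the other members was highest for Isg15 (Pearson r, median over libraries 0.72), then Irf7 (0.612), Ms4a4c (0.604) and Ifit3 (0.599). It was lowest for Irf9 (0.089) and Oas2 (0.174). Bst2, the most abundant member, stood at 0.429 and had a UMI in 63.8% to 78.7% of thinned phagocytes, against 23.6% to 35.6% for Isg15. These values share depth and cells within a library and are descriptive. Over 37 sums of a library and a cell type, the 10 genes outside the list most like its mean log2 level were 1600014C10Rik (r = 0.888), Tor1aip1, Chmp4b, Znhit1, Sem1, Rnf213, C1galt1c1, Parp12, Slfn5 and F10 (r = 0.796).

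Neutrophils differed most between libraries among the 4 lineages compared. Rsad2 stood at 1505 CPM in HFD_shYap, 463 CPM in HFD_WT, 210.02 CPM in LFD_shYap and 468 CPM in LFD_WT. Isg15 stood at 1471, 638, 407 and 684 CPM, and Ifit1 at 773, 174, 145 and 234 CPM. For these 3 genes HFD_shYap was more than 2-fold above every other library, and LFD_shYap was the lowest. HFD_shYap over LFD_shYap gave a log2 ratio of the sum of 1.83 (1.76 to 1.90), and 24 of the 29 members with at least 30 UMIs over both were at least 2-fold higher (12.5% of all genes were). The highest was Ifit3b at 3.73 (106 and 7 UMIs). The lowest was Phf11b, a PHD-finger protein gene, at -0.82 (13 and 20 UMIs, interval -1.95 to 0.26). HFD_shYap over HFD_WT gave 1.17 (1.13 to 1.22), with 18 of 33 members at least 2-fold higher (3.73% of all genes) and 4 at least 2-fold lower (9.26%), from Ifih1 at 2.15 to Ifi205 at -2.35. The value of Ifi205 rested on 3 and 34 UMIs. LFD_shYap over LFD_WT gave -0.82 (-0.90 to -0.74), with all 26 members that passed the UMI minimum lower and 8 by at least 2-fold (9.1%), from Irf9 at -0.06 to Bst2 at -1.42. HFD_WT over LFD_WT gave -0.16 (-0.22 to -0.10), with 1 member at least 2-fold higher (6.62% of all genes), the RNA sensor gene Dhx58 at 1.14, and Ifi35 lowest at -0.97. Dhx58 rested on 36 and 5 UMIs, and its interval, -0.22 to 2.85, included 0. Over all genes the median log2 ratio was 0.20 for HFD_shYap over LFD_shYap and -0.25 for LFD_shYap over LFD_WT.

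Within HFD_shYap, neutrophils with Y-linked RNA had higher member levels than those with Xist. Members took 1.01% of UMIs (0.979% to 1.05%) in its 121 neutrophils with Y-linked UMIs only, and 0.349% (0.321% to 0.378%) in its 58 neutrophils with Xist UMIs only, at median depths of 2282 and 2499 UMIs. The 285 neutrophils with neither RNA, more than both kinds together, gave 0.779%, at a median of 2085 UMIs. The second value lay within the counting interval of HFD_WT neutrophils, 0.341% to 0.355%. Rsad2 stood at 2404 CPM in the Y-linked and 284 CPM in the Xist-bearing cells, and Isg15 at 1957 and 609 CPM. Of 24 members with at least 30 UMIs over both kinds, 23 were higher in the Y-linked cells and 17 at least 2-fold (7.02% of all genes), and their median log2 ratio was 1.24, against 0.05 over all genes. This minimum favours members that are high in the more numerous Y-linked cells. Members under it went both ways, on few UMIs, so the count of 23 is a description. With Xist-bearing cells alone, HFD_shYap over HFD_WT came to 0.003, and with Y-linked cells alone to 1.54. Monocytes of HFD_shYap differed in the same direction, with 0.529% in 123 Y-linked and 0.318% in 122 Xist-bearing cells, and phagocytes as a whole gave 0.263% and 0.203%. There the cells with neither RNA stood above both kinds, at 0.720% in monocytes and 0.307% in phagocytes. The T lineage gave 0.138% and 0.137%. The animals behind each kind are not labelled, and sex and animal cannot be told apart.

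**Figure D4:**
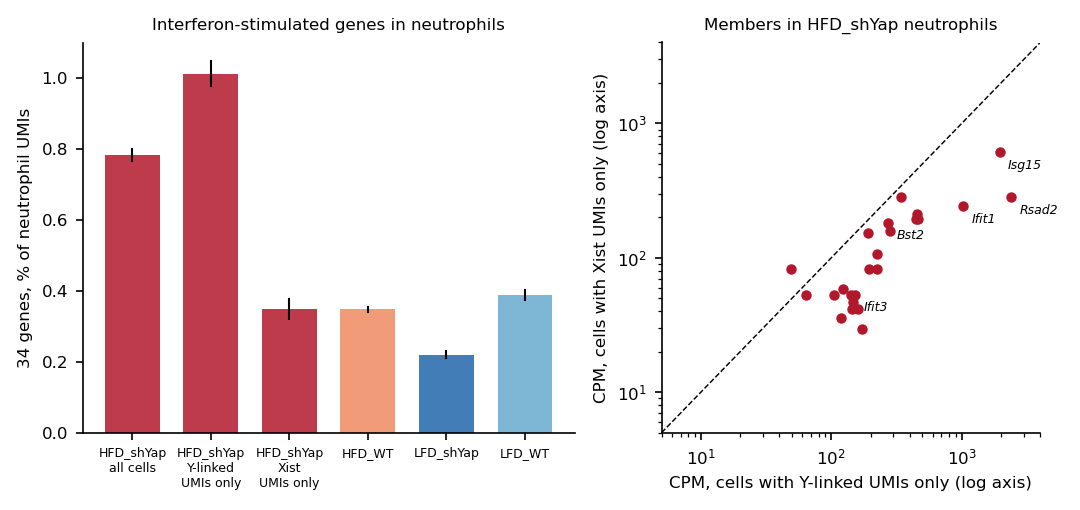
Left, share of neutrophil UMIs from the 34 genes (vertical axis, %), for HFD_shYap as a whole and by the sex-linked RNA of its cells, and for the other libraries, with exact 95% Poisson intervals. Right, CPM of the 24 members with at least 30 UMIs over both kinds of HFD_shYap neutrophils, on log axes, with the line of equality dashed. Cells with Y-linked UMIs only stand at 1.01% and those with Xist UMIs only at 0.349%, and 23 of 24 members lie on the Y-linked side.

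The neutrophil fits called 0 of 32 members for diet and 0 of 32 for tumour line with edgeR (0.0% of all genes for each). At an unadjusted p under 0.05 there were 3 members for diet and 3 for tumour line, and DESeq2 called 0 for both. On simulated counts for the diet comparison over 6721 genes, the fit recovered 9% of genes changed by a log2 of 1 and 83% of those changed by 2. LFD_shYap neutrophils were partly of another kind, 33 of 354 lying in a small cluster led by the granule genes Camp, Ngp and Ltf, where members took 0.0444% of UMIs. Without that cluster, HFD_shYap over LFD_shYap came to 1.33 and LFD_shYap over LFD_WT to -0.31. Neutrophils also carried phagocyte marker RNA at 24.5% of the phagocyte level in HFD_shYap, 41.7% in HFD_WT, 21.2% in LFD_shYap and 41.4% in LFD_WT, whereas the members stood at 99.04% to 317% of it. The part of that RNA in the differences was not tested.

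In the T lineage 5 members passed a test, all with lower levels in the HFD libraries or in the libraries labelled shYap. Diet called 3 of 34 members, all lower (1.21% of all genes called, 0.569% lower), namely Ifi205, Ifit1 and Ifit3. Ifit1 stood at 42.8 CPM in HFD_shYap and 41.7 CPM in HFD_WT, against 55.9 CPM in LFD_shYap and 86.3 CPM in LFD_WT (log2 fold change -0.77, SE 0.185, edgeR adjusted p = 0.0168). Ifit3 stood at 24.1 and 29.9 CPM in HFD_shYap and HFD_WT, against 32.4 and 60.4 CPM in LFD_shYap and LFD_WT (-0.78, SE 0.196, edgeR adjusted p = 0.0251). Ifi205 rested on 175 UMIs, with 5.58 and 4.46 CPM against 11.4 and 15.8 CPM in the same order (-1.46, SE 0.291, edgeR adjusted p = 0.0024). For these 3 genes both HFD libraries lay below both LFD libraries. For Ifit3 the gap between HFD_WT and LFD_shYap was small, with 194 and 151 UMIs. The sequence that Ifi205 shares with Ifi211 limits its values here too. The median over members was -0.25, against -0.01 over all genes. On simulated counts for this diet comparison, the fit recovered 74% of genes changed by a log2 of 1 and 94% of those changed by 2. It also called 8 unchanged genes.

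Tumour line called 2 of 34 members in the T lineage, both lower (0.413% of all genes called, 0.321% lower). Isg15 stood at 130.1 CPM in HFD_shYap and 162 CPM in LFD_shYap, against 219 CPM in HFD_WT and 276 CPM in LFD_WT (-0.81, SE 0.159, edgeR adjusted p = 0.0040). Isg20 stood at 45.8 and 46.6 CPM in the libraries labelled HFD_shYap and LFD_shYap, against 82.4 and 67.6 CPM in HFD_WT and LFD_WT (-0.75, SE 0.179, edgeR adjusted p = 0.0394). Between single libraries, HFD_WT over LFD_WT had 10 of 34 members at least 2-fold lower (1.59% of all genes), from Isg20 at 0.29 to Ifi205 at -1.82. LFD_shYap over LFD_WT had 4 (1.44%), from Phf11d at 0.28 to Oas1a at -1.504, and HFD_shYap over LFD_shYap had 1 (0.858%), from Oas1a at 0.96 to Ifi205 at -1.03. HFD_shYap over HFD_WT had none in either direction (1.45% of all genes were higher and 0.641% lower), from Cmpk2 at 0.80 to Isg20 at -0.85. These calls depended on the model. With all 4 libraries and the tested factor fitted alone, diet called 0 members and tumour line 0. With 1 library left out the factor was also fitted alone, so that both choices changed. Diet then called members only without LFD_shYap. In the additive model it called 0 with DESeq2, and under the treatment field, where LFD_WT is the only low-fat library, it called a different member. Tumour line called members only without HFD_WT or without LFD_shYap, and not the same ones. In the additive model it called 1 (Isg15) with DESeq2. The share of all genes called is not given for these alternatives, so no excess of members can be read from them. Phagocyte marker RNA stood at 11.8% of the phagocyte level in T lineage cells of HFD_shYap, 11.7% in HFD_WT, 12.4% in LFD_shYap and 15.2% in LFD_WT, against 55.8% to 67.2% for the members, and its part was not tested.

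The clusters low in Ptprc, led by Hmga2 and Tm4sf1 in the first and by Ogn, Aspn and Col6a1 in the other, lacked the leukocyte label of the samples, with 7.79 to 13.8 CPM of Ptprc against 277 to 364 CPM over all kept cells. There LFD_WT had the lowest share of summed UMIs. Members took 0.107% of UMIs in HFD_shYap, 0.0939% in HFD_WT, 0.0817% in LFD_shYap and 0.0498% in LFD_WT in the Hmga2 cluster. They took 0.124%, 0.147%, 0.170% and 0.102% in the Ogn cluster. The median cell of both clusters gave another order, at 0.0773% in HFD_shYap, 0.0595% in HFD_WT, 0.0432% in LFD_shYap and 0.0442% in LFD_WT, so that the excess of LFD_shYap over LFD_WT was absent from the median cell. Over both clusters Ifit3 stood at 16.2 CPM in HFD_shYap, 17.6 CPM in HFD_WT, 39.1 CPM in LFD_shYap and 6.40 CPM in LFD_WT, and Isg15 at 122, 118, 136 and 53.8 CPM. LFD_shYap over LFD_WT gave 0.82 (0.79 to 0.85), with 32 of 34 members higher and 12 at least 2-fold (1.43% of all genes), from Ifit3 at 2.61 to Ms4a4c at -0.32. HFD_WT over LFD_WT gave 0.72 (0.68 to 0.75), with 30 of 34 higher and 8 at least 2-fold (3.16%), from Oasl1 at 2.66 to Ifit2 at -0.65. HFD_shYap over HFD_WT gave 0.11 (0.07 to 0.15), with 1 member at least 2-fold higher (2.62%), from Ifi205 at 1.56 to Oasl1 at -0.90. HFD_shYap over LFD_shYap gave 0.01 (-0.03 to 0.05), with 3 at least 2-fold lower (1.45%), from Stat2 at 0.72 to Ifi206 at -1.99 (4 and 51 UMIs). Both ratios over LFD_WT were positive here and negative in phagocytes, a difference that was not tested.

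The edgeR fits called 0 of 34 members in these clusters for diet (0.611% of all genes called) and 0 for tumour line (0.0724%). At an unadjusted p under 0.05 there were 5 and 8 members, and DESeq2 called 0 for both. On simulated counts for the diet comparison here, the fit recovered 57% of genes changed by a log2 of 1 and 93% of those changed by 2. It called 9 unchanged genes. Without LFD_shYap, with LFD_WT as the only low-fat library and diet fitted alone, diet called 6 members higher among 168 genes, namely Ifit1, Ifit3, Irf7, Isg15, Oasl1 and Zbp1. Without LFD_WT it called Ifit1 and Ifit3 lower among 92 genes, so the direction depended on which low-fat library was kept. Phagocyte marker RNA stood at 2.77% to 4.23% of the phagocyte level here, against 20.1% to 50.02% for the members.

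Around the members, the ligands of the pathway were scarce. Ifnb1, which encodes interferon beta, had 729 UMIs in 174 kept cells, and 81.9% of these UMIs came from LFD_shYap. In phagocytes it stood at 0.447 CPM in HFD_shYap, 1.14 CPM in HFD_WT, 8.02 CPM in LFD_shYap and 0.032 CPM in LFD_WT, where 2 UMIs were counted. A UMI of Ifnb1 was found in 129 of 5991 LFD_shYap phagocytes, or 2.15% (exact 95% interval 1.80% to 2.55%), and in 0.0654% of phagocytes in HFD_shYap, 0.342% in HFD_WT and 0.0307% in LFD_WT. In the T lineage 1 of 685 cells of LFD_shYap had such a UMI, or 0.146%, and none in the other libraries, at a median of 5190.5 UMIs per cell in the T lineage of LFD_shYap without the UMI and 9388.5 in its phagocytes without it. The edgeR fits did not call Ifnb1 in phagocytes for diet (log2 fold change -0.92, SE 1.73, edgeR adjusted p = 1.0) or for tumour line (2.15, SE 1.67, edgeR adjusted p = 0.925). Plasmacytoid dendritic cells had 0 Ifnb1 UMIs, in 5 cells of HFD_shYap, 37 of HFD_WT, 16 of LFD_shYap and 19 of LFD_WT, which allows a share of cells with a UMI of up to 8.11% in HFD_WT, 18.8% in LFD_shYap and 15.8% in LFD_WT, and a higher one still in the 5 cells of HFD_shYap.

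Of all Ifnb1 UMIs, 66.1% came from LFD_shYap cells of 1 phagocyte cluster, of which 2121 of 2416 cells were from LFD_shYap. Ifnb1 was among its defining genes. It held 482 Ifnb1 UMIs in 94 cells of LFD_shYap and 0 in the 103, 105 and 87 cells of HFD_shYap, HFD_WT and LFD_WT, which allows shares of up to 2.91%, 2.86% and 3.45% of cells with a UMI. In LFD_shYap cells of the cluster with an Ifnb1 UMI, members took 0.335% of UMIs, against 0.0956% in its other cells there. Over all LFD_shYap phagocytes the values were 0.350% and 0.219%, at median depths of 12493 and 9388.5 UMIs. In HFD_WT they were 0.509% in 22 cells with an Ifnb1 UMI and 0.254% in the others. The library with most Ifnb1 RNA thus had the lowest member share in phagocytes as a whole, and within LFD_shYap and HFD_WT the cells with Ifnb1 RNA had the higher share.

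**Figure D5:**
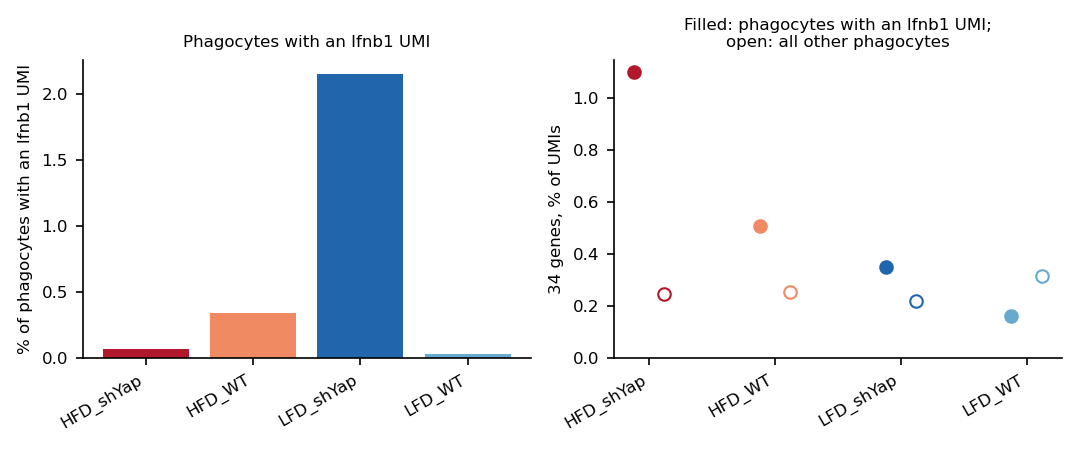
Left, share of phagocytes with an Ifnb1 UMI (vertical axis, %), by library. Right, share of UMIs from the 34 genes (vertical axis, %) in phagocytes with an Ifnb1 UMI (filled) and in all others (open). LFD_shYap stands at 2.15% on the left, and the filled points of HFD_shYap and LFD_WT on the right rest on 3 and 2 cells.

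The other 40 genes of the pathway list covered ligands, receptors, kinases, factors, sensors, inhibitors and interferon-gamma targets, and 32 were tested in phagocytes. Diet called 3 of them, against 0.519% of all genes, all higher and all known targets of interferon gamma. No other interferon-gamma target of the list was called there. Cxcl9, a chemokine for T cells, stood at 189.8 CPM in HFD_shYap and 319 CPM in HFD_WT, against 43.8 CPM in LFD_shYap and 45.6 CPM in LFD_WT (log2 fold change 2.41, SE 0.234, edgeR adjusted p = 0.0033). Gbp2, a guanylate-binding protein gene, stood at 106 and 96.03 CPM in HFD_shYap and HFD_WT, against 31.3 and 56.6 CPM in LFD_shYap and LFD_WT (1.21, SE 0.208, edgeR adjusted p = 0.0416). Ciita, the master factor of MHC class II, rose by 1.31 (SE 0.221, edgeR adjusted p = 0.0407). The mix of phagocyte clusters differed too. A cluster led by Cxcl9, with MHC class II genes among its leading genes, held 821 of 4586 phagocytes in HFD_shYap and 2514 of 6426 in HFD_WT. It held 722 of 5991 in LFD_shYap and 545 of 6521 in LFD_WT. The part of this mix in the calls was not tested. The receptor genes Ifnar1 and Ifnar2 ranged from 62.1 to 90.7 CPM and from 148 to 197 CPM, and neither was called. Tumour line called 0 of 32 in phagocytes with edgeR, with 2 at an unadjusted p under 0.05, and DESeq2 called 1, Cxcl10.

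In the T lineage, 30 of the 40 were tested, and diet (1.21% of all genes called) called 2 higher, Cxcl9 (1.64) and the GTPase gene Iigp1 (0.84), and 1 lower, Cxcl10 (-0.76, edgeR adjusted p = 0.0135), a chemokine induced by both types of interferon. Tumour line (0.413% of all genes) called Cxcl10 lower there (-0.81, edgeR adjusted p = 0.0147). The phagocyte marker RNA of 11.7% to 15.2% given above touches these chemokines too, since phagocytes carry both. In the Ptprc-low clusters diet (0.611% of all genes) called 1 of 28 tested, Gbp2 (1.24, SE 0.176, edgeR adjusted p = 0.0127), and for tumour line edgeR called 0 of 28, with 8 at an unadjusted p under 0.05 and 0 by DESeq2. In neutrophils edgeR called 0 of 25 for diet and 0 of 25 for tumour line, with 2 and 5 at an unadjusted p under 0.05 and 0 by DESeq2 for both. DESeq2 called the same 3 genes in phagocytes for diet, but in the T lineage it called Cxcl9 alone for diet and 0 genes for tumour line.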

How the data were processed

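Gene by cell UMI counts of 4 libraries were used as deposited by the authors, with no normalization. Reads had been aligned to mm10; Cell Ranger 4.0.0 and STAR 2.5.1 are given per the submitters' processing notes, and Cell Ranger 6.0.0 per the file headers. Barcodes with under 200 genes or at least 15% mitochondrial UMIs were left out. Doublet-like barcodes were removed by rank of scanpy's scrublet score, at an assumed 0.8% per 1000 barcodes, because its own threshold had not worked. Cells were clustered with scanpy 1.11.5 and Leiden (2000 variable genes, of which 13 were members, 30 components, resolution 1.0) and named from marker lists. UMIs were summed per library and lineage and tested with edgeR 4.0.16 in R 4.3.3 (TMM scaling, filterByExpr, additive diet and tumour line, adjusted p under 0.05). The fit was tested on simulated data.

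Single libraries were compared for genes with at least 30 UMIs over both, so a gene could pass through the library where it was high. Exact Poisson and conditional binomial intervals at 95% cover counting error only, and a count of 0 was bounded by 3 counts. The members, role groups, pathway list and marker lists were chosen with earlier results of these data known. Values per library are given for the 2 members of each role with most UMIs, for members called in a fit, and for the highest and lowest member of each pair. The 10 genes most like the members were taken by Pearson correlation of log2(CPM + 1). The values of 1 gene of the pathway list are not reported here. Genes named outside these rules were chosen after their values were seen. Alternatives were DESeq2 1.42.0, no filter, the treatment field's diet, each library left out, doublets kept, the tested factor alone, clustering without members, a 10% mitochondrial limit, other summaries of the members, and a split of HFD_shYap by Xist and Y-linked UMIs. Where labels name no separate animals, p-values measure the spread between libraries, which may be technical.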

Additional observations from a re-analysis of the deposited data

Results flagged for a closer look

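In 3 comparisons the summed members moved in opposite directions in the groups set side by side, and in each the difference was not tested, since a combination had 1 library. In phagocytes, the log2 ratio of high-fat over low-fat diet was 0.15 with the tumour line labelled shYap and -0.30 with unmodified MC38. The first value lay at the median over all genes of its pair, 0.15, and the opposite direction was lost with TMM scaling, at -0.003, and with Xist-bearing cells of HFD_shYap, at -0.135. In neutrophils the same ratio was 1.83 with the line labelled shYap and -0.16 with unmodified MC38. In neutrophils the ratio of shYap over unmodified MC38 was 1.17 under high-fat diet and -0.82 under low-fat diet. All 3 involve the conflicting diet label of LFD_shYap or the mixed sex-linked RNA of HFD_shYap, whose parts were not tested here beyond the values given with and without those cells.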

How the results depend on the processing

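No paired analysis was possible because each combination of diet and tumour line had 1 library and replicate numbers came from accession order alone. In phagocytes the ratio of the summed members kept its sign under 7 of 7 alternatives for HFD_WT over LFD_WT (-0.44 to -0.015) and for LFD_shYap over LFD_WT (-0.60 to -0.24). It kept its sign under 7 of 9 for HFD_shYap over LFD_shYap and 6 of 9 for HFD_shYap over HFD_WT. For these 4 pairs, in the order HFD_shYap over LFD_shYap, HFD_shYap over HFD_WT, HFD_WT over LFD_WT and LFD_shYap over LFD_WT, the median over members gave 0.265, 0.136, -0.439 and -0.599. The sum without the 3 most abundant members gave 0.258, 0.125, -0.430 and -0.563, and TMM scaling gave -0.003, -0.160, -0.243 and -0.399. Keeping doublet-like barcodes gave 0.161, -0.067 and -0.276 for the first 3. Clustering without the members and pathway genes gave -0.269 and -0.468 for the last pair of comparisons, and the mean within clusters -0.015 and -0.244. Xist-bearing cells of HFD_shYap gave -0.135 and -0.330 for the first pair of comparisons, and Y-bearing cells 0.242 and 0.047.

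In neutrophils, HFD_shYap over LFD_shYap came to 1.332 without the Camp cluster, 1.714 with doublet-like barcodes, 1.633 as the median over members, 0.660 with Xist-bearing and 2.199 with Y-bearing cells, these alternatives having been chosen after seeing the data. HFD_shYap over HFD_WT came to 1.063 as the median, 0.003 with Xist-bearing and 1.543 with Y-bearing cells, and LFD_shYap over LFD_WT to -0.313 without the Camp cluster and -0.727 with doublet-like barcodes.

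Each library was left out in turn, with the tested factor fitted alone and an arm of 1 library assumed to vary like the other libraries. The members called then changed with the library left out. This held for diet in phagocytes, the T lineage, neutrophils and the Ptprc-low clusters, and for tumour line in the T lineage and the Ptprc-low clusters. In the T lineage, diet called 0 with DESeq2, with doublet-like barcodes, with the factor alone and with Xist-bearing cells, and 1 under the treatment field. Tumour line called 1 there with DESeq2 and 0 with the treatment field, doublet-like barcodes, the factor alone and Xist-bearing cells, and 3 with Y-bearing cells, with which diet also called 3. Diet in phagocytes called 1 with DESeq2, 1 without a filter, 3 with Xist-bearing and 1 with Y-bearing cells. Diet in neutrophils called 1 with doublet-like barcodes. In the Ptprc-low clusters diet called 2 without a filter, 2 under the treatment field and 1 with Xist-bearing cells, and tumour line 5 without a filter and 1 with Xist-bearing cells. For tumour line in phagocytes and in neutrophils 0 members were called under all 11 alternatives run. These counts are given without the share of all genes called, so they show how calls depended on the processing and no excess of members. The cause of these changes was not tested. In neutrophils 2-fold changes were mostly not recovered from simulated counts for diet.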
